A study of Saccharomyces cerevisiae with 9 samples.

Results

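The genes described here encode the enzymes of the first steps of glycolysis in the budding yeast Saccharomyces cerevisiae. They are the glucose-phosphorylating kinases HXK1, HXK2, GLK1 and EMI2, the phosphoglucose isomerase PGI1, the phosphofructokinase subunits PFK1 and PFK2, and the regulatory kinases PFK26 and PFK27. They were chosen by gene name, and all 9 were found among the 6215 genes of the deposited table. The RNA came from 3 haploid MATα strains, each with the his3Δ1, leu2Δ0 and ura3Δ0 alleles, grown in synthetic complete medium at 28 °C for 24 h without further treatment, and each sequenced as 3 biological replicates. Wild type was BY4742 with lys2Δ0. The pil1Δ strain carried lys2Δ0 as well, and its PIL1 gene was replaced by kanMX4. The seg1Δnce102Δpil1Δ strain, called the triple mutant here, lacked SEG1, NCE102 and PIL1 and was listed with LYS2 and MET15. The deletions of the triple mutant and its other marker differences from the 2 other strains cannot be told apart. The labels name no separate clones, so p-values measure the spread between these libraries.

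Glucose that enters a yeast cell is trapped by phosphorylation to glucose 6-phosphate. Hexokinase 1 and hexokinase 2, encoded by HXK1 and HXK2, act on glucose and fructose, whereas glucokinase, encoded by GLK1, acts on glucose but not on fructose. EMI2 encodes a close relative of glucokinase. Phosphoglucose isomerase, encoded by PGI1, turns glucose 6-phosphate into fructose 6-phosphate in a reversible step that glycolysis and gluconeogenesis share. Phosphofructokinase then commits the sugar to glycolysis, and its alpha and beta subunits are encoded by PFK1 and PFK2. Pfk26 and Pfk27 make fructose 2,6-bisphosphate, a small molecule that activates phosphofructokinase and inhibits the fructose-1,6-bisphosphatase Fbp1. In yeast grown on abundant glucose HXK2 is known as the main kinase gene, and HXK1 and GLK1 are known as genes that glucose represses. Hxk2 also takes part in glucose repression itself. PIL1, SEG1 and NCE102 encode parts of the eisosome, a protein assembly under furrows of the plasma membrane.

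The promoters of the 4 glucose-phosphorylating kinases are shown because HXK1, GLK1 and EMI2 were called higher in the triple mutant and HXK2 was not. Each window holds 250 bases before the start codon and the first 50 bases of the coding sequence, 5′ to 3′ on the gene's strand, read from the R64 genome. Capitals mark matches on either strand to CTTCC, the core of the site of the glycolytic activator Gcr1, CACCCA, a core of the Rap1 site, CCCCGC, a form of the site of the glucose repressor Mig1, CCCCT, the stress response element, and CCAAT, the site of the Hap complex. The windows are chrVI:255000-255299 on the minus strand for HXK1, chrVII:23685-23984 on the plus strand for HXK2, chrIII:50588-50887 on the plus strand for GLK1 and chrIV:1476427-1476726 on the minus strand for EMI2.
HXK1: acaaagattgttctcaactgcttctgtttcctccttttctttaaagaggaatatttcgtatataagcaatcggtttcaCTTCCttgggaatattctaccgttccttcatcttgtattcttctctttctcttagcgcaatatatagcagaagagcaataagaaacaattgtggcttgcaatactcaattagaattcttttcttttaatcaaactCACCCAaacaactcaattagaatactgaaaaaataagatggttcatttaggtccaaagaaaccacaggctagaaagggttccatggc
HXK2: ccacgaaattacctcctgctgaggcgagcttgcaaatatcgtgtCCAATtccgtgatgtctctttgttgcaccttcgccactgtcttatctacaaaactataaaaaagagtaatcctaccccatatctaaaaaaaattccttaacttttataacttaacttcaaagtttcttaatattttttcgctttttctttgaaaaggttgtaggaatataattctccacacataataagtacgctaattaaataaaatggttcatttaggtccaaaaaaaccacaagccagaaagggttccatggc
GLK1: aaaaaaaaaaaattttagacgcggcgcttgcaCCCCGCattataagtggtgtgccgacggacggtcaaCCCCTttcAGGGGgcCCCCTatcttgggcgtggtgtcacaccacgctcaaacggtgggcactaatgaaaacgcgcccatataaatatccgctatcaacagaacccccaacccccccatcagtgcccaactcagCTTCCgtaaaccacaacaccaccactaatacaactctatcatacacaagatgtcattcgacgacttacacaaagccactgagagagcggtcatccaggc
EMI2: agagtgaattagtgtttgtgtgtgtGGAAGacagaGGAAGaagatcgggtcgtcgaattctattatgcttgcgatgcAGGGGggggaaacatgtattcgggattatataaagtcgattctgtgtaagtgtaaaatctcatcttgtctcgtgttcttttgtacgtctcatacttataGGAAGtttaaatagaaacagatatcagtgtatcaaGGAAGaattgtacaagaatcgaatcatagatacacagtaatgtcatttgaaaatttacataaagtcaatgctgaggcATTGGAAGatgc
HXK1 and HXK2 are nearly alike where their proteins begin, with 3 of the first 50 coding bases differing, while the capitals before the start codon fall at different places. GLK1 held 3 matches to CCCCT, from base -182 to base -163 counted back from the start codon, and 1 match to CCCCGC at -218 to -213. EMI2 held 1 match to CCCCT at -173 to -169 and 5 to CTTCC, the last of which overlaps a CCAAT match inside the coding sequence. HXK1 held 1 match each to CTTCC and CACCCA, and HXK2 held 1 match to CCAAT.

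Among all 6007 windows of this kind, 21.6% held CCCCT and 0.483% held it 3 times or more, 2.58% held CCCCGC, 46.5% held CTTCC, 43.3% held CCAAT and 7.86% held CACCCA. Of the 9 genes, 5 held CTTCC, 5 held CCAAT, 2 held CCCCT, 2 held CACCCA and 1 held CCCCGC. The PFK26 window held none of these letters, PGI1 held CCAAT 2 times, PFK1 held it 1 time, PFK2 held CCAAT and CTTCC 1 time each, and PFK27 held CTTCC 4 times and CACCCA 1 time. A match of so few letters is a description of the sequence and not a binding site.

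The 9 libraries held between 21064051 and 27014469 reads, recovered as whole reads from the deposited normalized values, and the lowest count on any of the 9 genes was 1475 reads, for EMI2 in a pil1Δ library. The deleted genes matched the labels, with PIL1 at a mean of 19215 normalized reads in wild type, 114 in pil1Δ and 93.7 in the triple mutant, SEG1 at 6629 in wild type and 18.3 in the triple mutant, and NCE102 at 96493 and 204. LYS2 had 0 reads in wild type and pil1Δ and a mean of 30706 normalized reads in the triple mutant. A normalized read is a read count divided by the size factor of its library, so the values of 1 gene can be compared between libraries. In bulk libraries such as these, a changed share of cells in some state and a changed amount of RNA per cell cannot be told apart. Triple mutant replicate 1 stood apart from replicates 2 and 3, with a chi-square per degree of freedom of 397 and 312 against them, where replicates 2 and 3 gave 52.2 against each other. Replicate 2 of wild type also stood apart on this measure, at 191 and 150, where replicates 1 and 3 gave 68.1. In pil1Δ, replicate 2 gave 146 and 102, where replicates 1 and 3 gave 36.1. Each result below is therefore also read by library.

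In the triple mutant the transcripts of 3 glucose-phosphorylating kinases rose against wild type, and those of the isomerase and of both phosphofructokinase subunits fell. HXK1, GLK1 and EMI2 rose between 4.72-fold and 7.36-fold, and PGI1, PFK1 and PFK2 were 2.95-fold to 3.65-fold lower. HXK2, PFK26 and PFK27 were not called. Calls are at an adjusted p under 0.05 by limma with Benjamini-Hochberg adjustment over all 5886 genes tested, and all 9 genes were tested. Over all those genes 60.9% were called, 30.1% higher and 30.9% lower, so 6 of 9 called, 3 in each direction, is close to the background. The median log2 fold change of the 9 genes was 0.32, the value of PFK26, against -0.01 over all genes tested. With 3 genes called in each direction, that median describes no shared shift of the 9 genes. The libraries of the triple mutant and wild type did not overlap for 6 of the 9 genes, against 65.6% of all genes tested. Leaving out the first replicate of both strains gave 4 genes called higher and 3 lower. Leaving out the second replicate of wild type and of pil1Δ, a choice made after the values were seen, gave 3 higher and 4 lower.

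**Figure D1:**
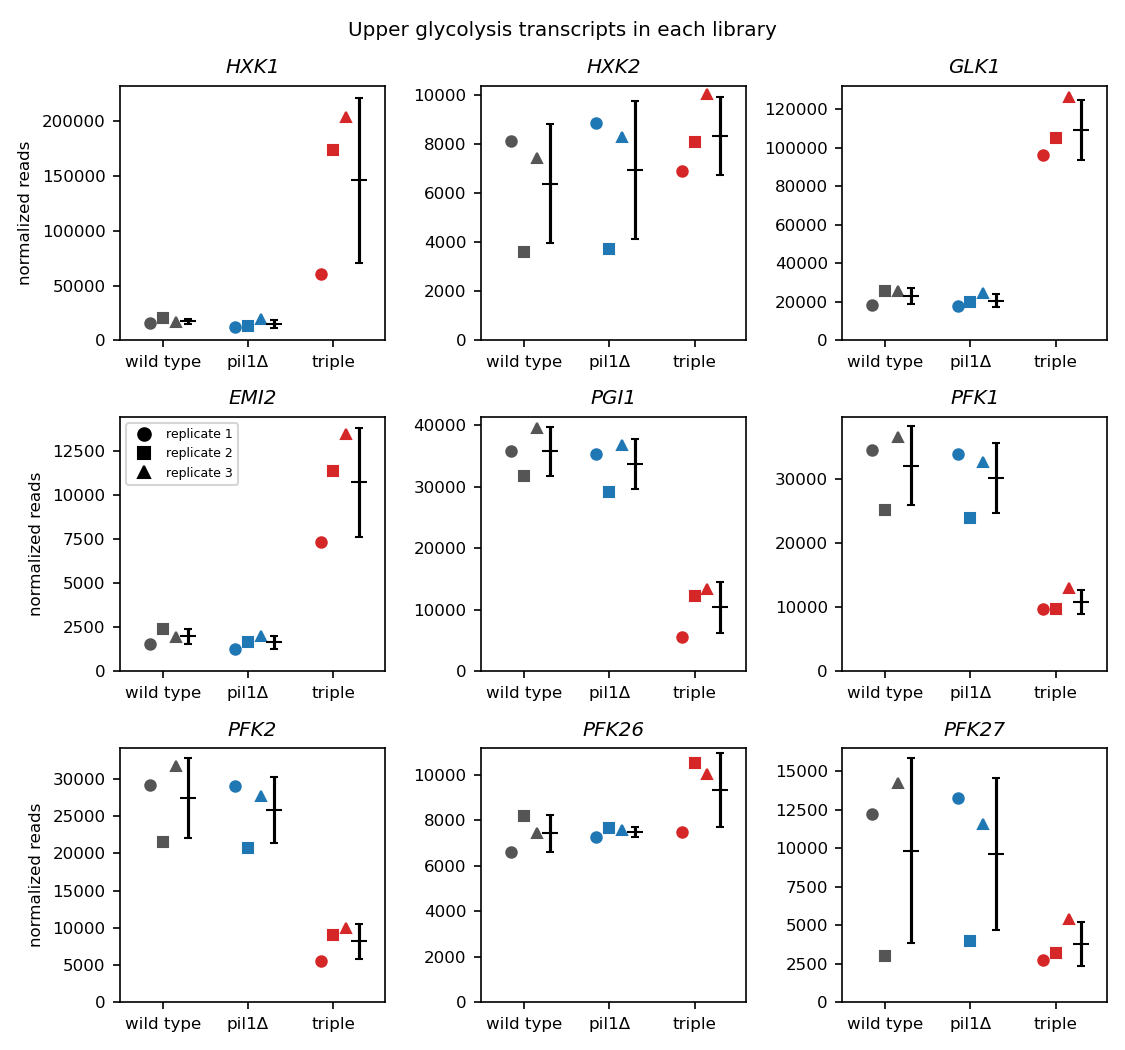
Normalized reads of the 9 genes for each library of wild type, pil1Δ and the triple mutant; symbols mark the replicate number, and the black bar is the mean with its SD over 3 libraries. HXK1, GLK1 and EMI2 stand higher in every triple mutant library than in any other library, PGI1, PFK1 and PFK2 stand lower, and HXK2 and PFK27 are low in replicate 2 of wild type and pil1Δ.

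HXK1 (YFR053C, chromosome VI, 253592 to 255049, minus strand, R64, a coding sequence with no intron) had 15901, 20230 and 16941 normalized reads in replicates 1 to 3 of wild type, 12639, 12901 and 19310 in pil1Δ and 61100, 173823 and 204291 in the triple mutant. Each triple mutant library stood above every other library, and replicate 1 held far less than replicates 2 and 3. The mean was 17691 ± 2259 in wild type and 146405 ± 75431 in the triple mutant (SD, n = 3). The log2 fold change was 2.88 (SE 0.41, adjusted p = 0.000297 by limma), and it was 3.42 without triple mutant replicate 1. In that library HXK1 held 32.3% of the mean of replicates 2 and 3.

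GLK1 (YCL040W, chromosome III, 50838 to 52340, plus strand) had 18420, 25586 and 25751 normalized reads in wild type, 17630, 19740 and 24406 in pil1Δ and 96280, 104962 and 126478 in the triple mutant. The 3 triple mutant libraries lay close together and well above the other 6. Its log2 fold change was 2.24 (SE 0.19, adjusted p = 1.95e-05 by limma), the smallest adjusted p among the 9 genes. GLK1 shares 106 bases with YCL042W on the same strand, which had between 39.9 and 66.0 normalized reads in the 9 libraries.

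EMI2 (YDR516C, chromosome IV, 1474974 to 1476476, minus strand) had 1550, 2419 and 1981 normalized reads in wild type, 1283, 1698 and 1993 in pil1Δ and 7372, 11363 and 13459 in the triple mutant. The groups did not overlap, and triple mutant replicate 1 was again the lowest of its group. The log2 fold change was 2.41 (SE 0.25, adjusted p = 5.37e-05 by limma). The coding sequences of GLK1 and EMI2 were 68.7% identical over 1500 aligned bases. In a search of the coding sequences of the genome, the longest match of each was the other.

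HXK2 (YGL253W, chromosome VII, 23935 to 25395, plus strand) did not follow its paralog. It had 8119, 3600 and 7447 normalized reads in wild type, 8851, 3715 and 8292 in pil1Δ and 6909, 8068 and 10041 in the triple mutant. The triple mutant libraries lay within or just above the range of the others, and the low values were those of replicate 2 in wild type and pil1Δ. The log2 fold change was 0.45 (SE 0.39, adjusted p = 0.333 by limma), with a 95% confidence interval from 0.748-fold to 2.51-fold of the wild-type level. HXK1 and HXK2 were 77.7% identical over 1458 aligned coding bases. Whether reads of the more abundant HXK1 were placed on HXK2 was not tested.

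The 4 kinases were summed per kilobase of coding sequence, a scale on which different genes can be compared. The sum was 33297 ± 3073 normalized reads per kilobase in wild type, 29817 ± 5833 in pil1Δ and 185944 ± 63809 in the triple mutant (SD, n = 3), and the lowest triple mutant library, replicate 1, reached 115598. HXK2 made up 18.7%, 7.05% and 14.5% of that sum in replicates 1 to 3 of wild type, 22.2%, 9.91% and 15.6% in pil1Δ and 4.09%, 2.73% and 2.86% in the triple mutant. Its share was thus lower in each triple mutant library than in any other. HXK1 made up 36.7%, 39.7% and 33% in wild type and 36.3%, 59.0% and 58.4% in triple mutant replicates 1 to 3. GLK1 made up 41.2% to 48.7% in wild type, and 55.4%, 34.5% and 35.0% in the triple mutant. EMI2 stayed between 3.13% and 4.60% of the sum in all 9 libraries. GLK1 was thus the leading kinase transcript in triple mutant replicate 1, and HXK1 was in replicates 2 and 3.

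**Figure D2:**
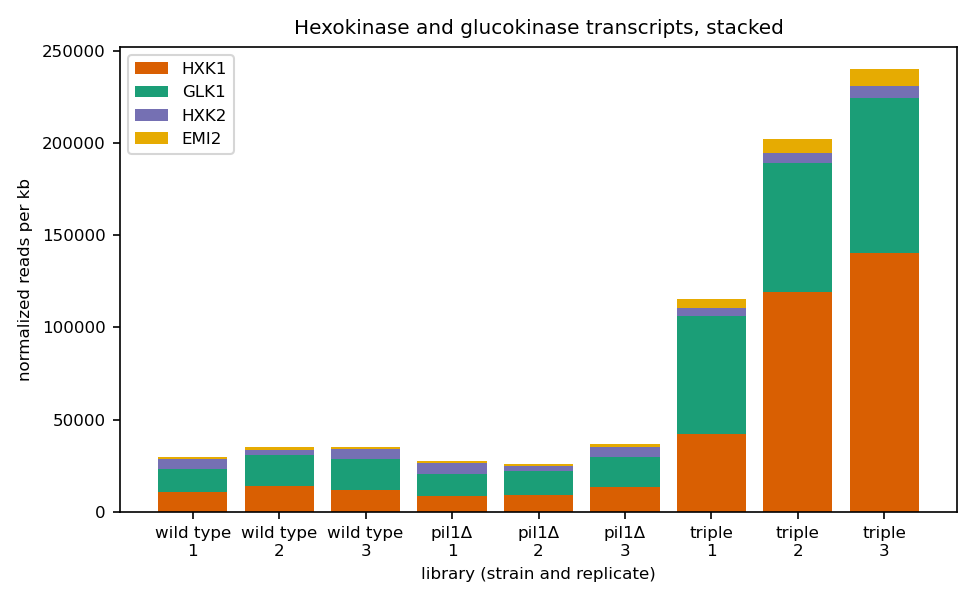
Stacked levels of the 4 glucose-phosphorylating kinase transcripts in each library, as normalized reads per kilobase of coding sequence. The 3 triple mutant bars reach 115598 or more while the other 6 reach 36484 or less, and the HXK2 segment is a small part of each triple mutant bar.

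PGI1 (YBR196C, chromosome II, 612236 to 613900, minus strand) had 35809, 31813 and 39628 normalized reads in wild type, 35296, 29123 and 36772 in pil1Δ and 5669, 12227 and 13401 in the triple mutant. All triple mutant libraries lay below the others, and replicate 1 held 44.2% of the mean of replicates 2 and 3. The log2 fold change was -1.87 (SE 0.29, adjusted p = 0.000552 by limma).

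PFK1 (YGR240C, chromosome VII, 970771 to 973734, minus strand) had 34454, 25063 and 36553 normalized reads in wild type, 33915, 23923 and 32624 in pil1Δ and 9789, 9724 and 12943 in the triple mutant. PFK2 (YMR205C, chromosome XIII, 671887 to 674766, minus strand) had 29103, 21452 and 31694 in wild type, 29004, 20674 and 27653 in pil1Δ and 5559, 9011 and 9928 in the triple mutant. The triple mutant libraries lay below all others for both subunits, and triple mutant replicate 1 was lowest for PFK2 but not for PFK1. The log2 fold changes were -1.56 for PFK1 (SE 0.20, adjusted p = 0.000187 by limma) and -1.77 for PFK2 (SE 0.25, adjusted p = 0.000283 by limma). The proteins of PFK1 and PFK2 form 1 enzyme complex, and their transcripts stood in a steady ratio in 6 of the libraries. Per kilobase, PFK1 to PFK2 was 1.135 ± 0.0148 in wild type and 1.136 ± 0.0110 in pil1Δ (SD, n = 3). In the triple mutant it was 1.71, 1.05 and 1.27. The triple mutant values lay on both sides of the others, and the exact two-sided permutation test of the difference gave p = 0.4 against wild type (n = 3 each).

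PFK26 (YIL107C, chromosome IX, 163278 to 165761, minus strand) had 6614, 8208 and 7433 normalized reads in wild type, 7249, 7656 and 7586 in pil1Δ and 7467, 10496 and 10019 in the triple mutant. Triple mutant replicates 2 and 3 lay above all other libraries and replicate 1 did not. The log2 fold change was 0.32 (SE 0.14, adjusted p = 0.0774 by limma), with a 95% confidence interval from 1.00-fold to 1.56-fold. Without triple mutant replicate 1 it was 0.47 and called (adjusted p = 0.00556 by limma). Scaling to the total reads of each library gave 0.09 (limma adjusted p = 0.662). That scaling moved the median of all genes to -0.23 and the calls over all genes to 1029 higher and 2377 lower, and all 9 genes kept their direction and their side of the threshold under it.

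PFK27 (YOL136C, chromosome XV, 67561 to 68754, minus strand) had the widest spread of the 9 genes relative to its wild-type mean. It had 12215, 2996 and 14247 normalized reads in wild type, 13233, 4003 and 11561 in pil1Δ and 2756, 3225 and 5420 in the triple mutant. Replicates 1 and 3 of wild type and pil1Δ stood high, and replicate 2 of both strains fell within the range of the triple mutant. The log2 fold change in the triple mutant was -1.15 (SE 0.63, adjusted p = 0.147 by limma), with a 95% confidence interval from 0.167-fold to 1.22-fold. Without wild type replicate 2 it was -1.86 and called (adjusted p = 0.0139 by limma). Other omissions brought it nearer to 0, to -0.84 without wild type replicate 1 (limma adjusted p = 0.36), to -0.73 without wild type replicate 3 (limma adjusted p = 0.389) and to -0.64 without the first replicate of both strains (limma adjusted p = 0.544). With replicate 2 of both wild type and pil1Δ left out, a choice made after the values were seen, it was also -1.86 (adjusted p = 0.000564 by limma).

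**Figure D3:**
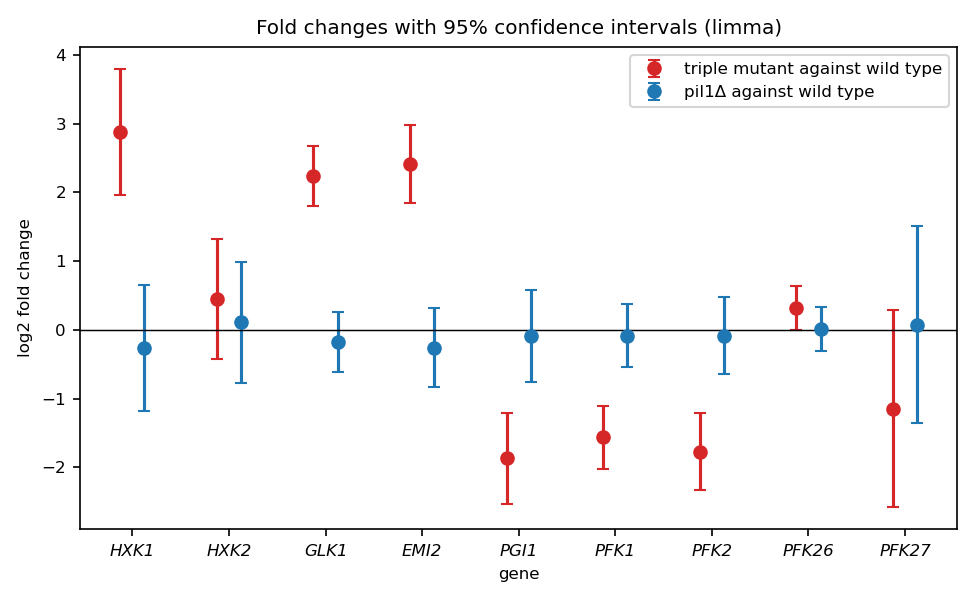
Log2 fold changes of the 9 genes against wild type with 95% confidence intervals from limma, for the triple mutant and for pil1Δ. In the triple mutant the intervals of HXK1, GLK1, EMI2, PGI1, PFK1 and PFK2 exclude 0, and in pil1Δ all 9 intervals include it.

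Deletion of PIL1 alone left none of the 9 genes called, where limma called 0.017% of all genes tested, which was PIL1 itself. At an unadjusted p under 0.05 in the same fit none of the 9 was listed either, against 1% of all genes. The log2 fold changes ranged from -0.26 for HXK1 to 0.11 for HXK2, with a median of -0.08 against 0.01 over all genes. The libraries of pil1Δ and wild type overlapped for each of the 9 genes, and they did not overlap for 6.22% of all genes. Precision differed between the genes. The 95% confidence interval ran from 0.812-fold to 1.27-fold of wild type for PFK26, from 0.686-fold to 1.30-fold for PFK1 and from 0.656-fold to 1.20-fold for GLK1. It ran from 0.441-fold to 1.57-fold for HXK1 and from 0.391-fold to 2.85-fold for PFK27. These intervals come from the fit that does not pair libraries. It takes its spread from all 9 libraries, so the spread between triple mutant libraries enters them too. Replicate numbers of wild type and pil1Δ deviated together. These libraries were also taken as pairs, in a fit that left out the triple mutant libraries. There the interval ran from 0.632-fold to 1.1-fold for HXK1 and from 0.833-fold to 1.34-fold for PFK27. Both the pairing and the libraries that set the spread differ between the fits, so the narrowing cannot be credited to pairing alone. The PFK27 log2 differences within pairs were 0.12, 0.42 and -0.30. GLK1, PGI1, PFK1 and PFK2 were lower in pil1Δ in all 3 pairs and HXK2 was higher in all 3, so 5 of 9 genes kept one direction, where 38.1% of all genes tested did. In the paired fit HXK2 (0.11, SE 0.04) and EMI2 (-0.26, SE 0.10) had an unadjusted p of 0.0463 and 0.0386 by limma, and none of the 9 was called, with adjusted p from 0.327 to 0.898.

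Within wild type and pil1Δ, replicate 2 differed from replicates 1 and 3 in the same genes in both strains. HXK2, PGI1, PFK1, PFK2 and PFK27 were lowest in replicate 2 of both strains, which makes 5 of 9 genes, where 28.6% of all genes tested did the same. Against the mean of the other 2 libraries, PFK27 was at 22.6% in wild type replicate 2 and at 32.3% in pil1Δ replicate 2. HXK2 was at 46.3% and 43.3%, PFK1 at 70.6% and 71.9%, PFK2 at 70.6% and 73.0%, and PGI1 at 84.3% and 80.8%. The other 4 genes were not lowest in replicate 2 of both strains. HXK1 was at 123% in wild type replicate 2 and 80.8% in pil1Δ replicate 2. GLK1 was at 116% in wild type replicate 2 and 93.9% in pil1Δ replicate 2, EMI2 at 137% and 104%, and PFK26 at 117% and 103%. In the triple mutant, replicate 1 was lowest for 8 of the 9 genes, all but PFK1, where 38.5% of all genes tested were lowest in that library. Whether the replicate numbers mark a shared culture day is not said in the labels, and what moves with them was not tested.

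The ratio of a gene to its paralog within a library does not depend on how libraries are scaled. Per kilobase, HXK2 to HXK1 was 0.510, 0.178 and 0.439 in replicates 1 to 3 of wild type, 0.699, 0.287 and 0.429 in pil1Δ and 0.113, 0.0463 and 0.0491 in the triple mutant. Every triple mutant ratio lay below every other ratio, by 5.37-fold on the log2 mean against wild type. With 3 libraries against 3, the exact permutation test cannot go below p = 0.1, and it gave p = 0.1 here (two-sided, adjusted p = 0.3 over 21 comparisons of 7 ratios). HXK2 to GLK1 behaved alike, with 0.453, 0.145 and 0.297 in wild type, 0.516, 0.194 and 0.350 in pil1Δ and 0.0738, 0.0791 and 0.0817 in the triple mutant (exact permutation p = 0.1 against wild type, adjusted p = 0.3). The triple mutant libraries were close to each other in this ratio and below the other 6.

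GLK1 to EMI2 lay between 9.24 and 13.7 in all 9 libraries, with overlapping groups (exact permutation p = 0.4 for the triple mutant against wild type, n = 3 each). PFK26 to PFK27 was 0.260, 1.32 and 0.251 in wild type, 0.263, 0.919 and 0.315 in pil1Δ and 1.30, 1.56 and 0.888 in the triple mutant. PFK26 was the more abundant of these transcripts in wild type replicate 2 and in triple mutant replicates 1 and 2, and PFK27 was in the other 6 libraries. Replicate 2 of wild type and of pil1Δ lay among the triple mutant libraries, and the groups overlapped (exact permutation p = 0.3 against wild type, n = 3 each).

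**Figure D4:**
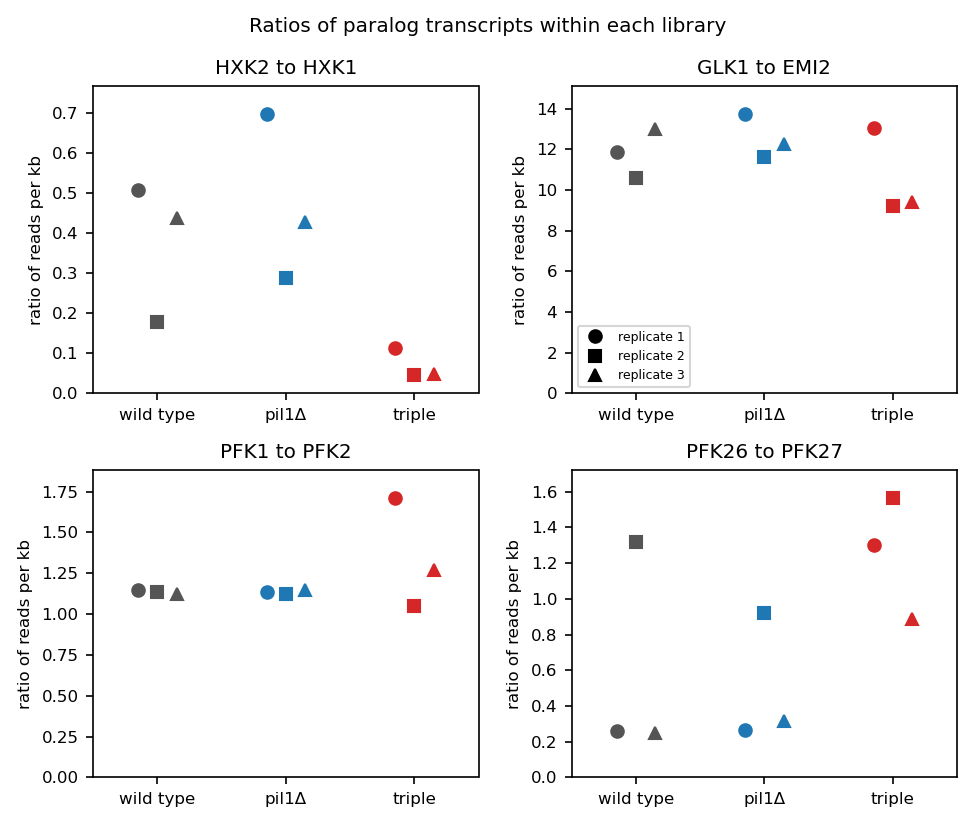
Ratios of paralog transcripts in each library, on normalized reads per kilobase of coding sequence, with symbols for the replicate number. HXK2 to HXK1 is at most 0.113 in all 3 triple mutant libraries, GLK1 to EMI2 overlaps between strains, PFK1 to PFK2 is near 1.14 in the 6 wild type and pil1Δ libraries, and PFK26 to PFK27 is high in replicate 2 of wild type and pil1Δ.

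On the scale of normalized reads per kilobase, the order of levels in wild type was PGI1 at 21472 ± 2347, GLK1 at 15471 ± 2785, HXK1 at 12133 ± 1550, PFK1 at 10804 ± 2064, PFK2 at 9520 ± 1849, PFK27 at 8224 ± 5021, HXK2 at 4373 ± 1669, PFK26 at 2986 ± 321 and EMI2 at 1320 ± 289 (SD, n = 3). PGI1 stood above GLK1 and EMI2 below PFK26 without overlap, and all other neighbours in this order overlapped in their libraries. The order in pil1Δ was the same. In the triple mutant HXK1 came first at 100415 ± 51736, followed by GLK1 at 72681 ± 10344 and EMI2 at 7140 ± 2057, and PFK2 came last at 2835 ± 800. There HXK1 and GLK1 overlapped, GLK1 and EMI2 did not, and HXK2 at 5708 ± 1084 and PFK26 at 3755 ± 656 did not. Ranked by mean level among the 5802 tested genes with a coding length, HXK1 moved from place 272 in wild type to place 14 in the triple mutant, GLK1 from 205 to 31 and EMI2 from 2689 to 590, while PGI1 moved from 136 to 675 and PFK1 from 316 to 1180. HXK2 stood at 887 and 738.

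The triple mutant was also compared with pil1Δ, a strain that shares its PIL1 deletion. This comparison uses the same triple mutant libraries as the one above. HXK1, GLK1 and EMI2 rose, PGI1, PFK1 and PFK2 fell and the other 3 genes were not called, where 62.9% of all genes tested were called, 30.8% higher and 32.1% lower. The libraries did not overlap for 6 of the 9 genes and for 69.3% of all genes tested. The log2 fold changes were 3.14 for HXK1 (SE 0.41, adjusted p = 0.00016 by limma), 2.41 for GLK1 (adjusted p = 1.13e-05) and 2.67 for EMI2 (adjusted p = 2.65e-05). They were -1.78 for PGI1 (SE 0.29, adjusted p = 0.000665), -1.48 for PFK1 (adjusted p = 0.000235) and -1.69 for PFK2 (adjusted p = 0.000333). HXK2 stood at 0.35 (SE 0.39, adjusted p = 0.453), and at -0.06 without pil1Δ replicate 2. PFK26 stood at 0.30 (adjusted p = 0.0923), and at 0.45 and called without triple mutant replicate 1 (adjusted p = 0.00651). PFK27 stood at -1.22 (adjusted p = 0.121), and at -1.77 and called without pil1Δ replicate 2 (adjusted p = 0.0418). It was also called without wild type replicate 2, which enters only through the spread (adjusted p = 0.0439).

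Of 3 genes for enzymes that run against glycolysis, 2 were called higher in the triple mutant than in wild type and 0 lower, where 30.1% of all genes tested were called higher and 30.9% lower. With so few genes, that count is not read as a result about them. FBP1, the fructose-1,6-bisphosphatase that opposes phosphofructokinase, had 358, 392 and 400 normalized reads in wild type and 10020, 578 and 707 in the triple mutant. All 3 triple mutant libraries lay above wild type, but by far the most in replicate 1, and the gene was not called (log2 fold change 2.06 with an SE of 0.91, limma adjusted p = 0.0774). It was called at 0.74 without triple mutant replicate 1, at 2.79 without replicate 2 and at 2.65 without replicate 3 (limma adjusted p = 0.000919, 0.0275 and 0.045). PFK1 to FBP1 per kilobase was 33.9, 22.6 and 32.3 in wild type and 0.345, 5.94 and 6.47 in the triple mutant (exact permutation p = 0.1, adjusted p = 0.3). The log2 difference of this ratio was -3.62, and -2.23, -4.29 and -4.35 without triple mutant replicates 1, 2 and 3 in turn. FBP1 was thus the more abundant transcript of that pair in triple mutant replicate 1 only, among all 9 libraries. FBP26, whose protein breaks down fructose 2,6-bisphosphate, had 3277, 4052 and 3677 normalized reads in wild type and 6947, 4420 and 5400 in the triple mutant. It rose by 0.59 on the log2 scale (SE 0.16, adjusted p = 0.0105 by limma). PFK27 to FBP26 per kilobase was 4.24, 0.842 and 4.41 in wild type and 0.451, 0.830 and 1.14 in the triple mutant, and the groups overlapped (exact permutation p = 0.2, n = 3 each). PCK1, the gluconeogenic phosphoenolpyruvate carboxykinase, had 527, 465 and 487 normalized reads in wild type and 36849, 2259 and 2330 in the triple mutant. It rose by 3.55 on the log2 scale (SE 0.91, adjusted p = 0.00876 by limma), and by 2.22 without triple mutant replicate 1, which is 4.66-fold in place of 11.7-fold. Without triple mutant replicate 2 or 3 it was 4.23 or 4.21.

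Lower glycolysis, from aldolase to pyruvate kinase, had 0 of 11 genes called higher and 10 called lower, where 30.1% and 30.9% of all genes tested were. Without wild type replicate 3, 9 were called lower. The median log2 fold change was -2.55, against -0.01 over all genes tested. By comparison, the isomerase and phosphofructokinase genes ranged from -1.87 to -1.56. ENO2 (enolase) stood at -4.46 (SE 0.13), CDC19 (pyruvate kinase) at -3.28 (SE 0.21) and GPM1 (phosphoglycerate mutase) at -2.55 (SE 0.20). ENO2 is 94.8% identical to ENO1, so reads of the enolase genes are uncertain. PYK2, a second pyruvate kinase gene that was named after its value was seen, was the member not called, at 0.02 (adjusted p = 0.934 by limma).

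The branches that draw on glucose 6-phosphate and fructose 6-phosphate had 3 of 13 genes called higher, 5 lower and 5 not called, close to the 30.1% higher and 30.9% lower over all genes tested, and their median was -0.08. Leaving out single libraries gave 2 to 4 higher and 4 to 5 lower. ZWF1, the glucose-6-phosphate dehydrogenase that opens the pentose phosphate pathway, had 26146, 25482 and 26447 normalized reads in wild type and 49654, 49334 and 57430 in the triple mutant. Its libraries were close within each group and far apart between them (log2 fold change 1.00 with an SE of 0.12, limma adjusted p = 0.000104). SOL3, a lactonase gene of the next step, fell by 1.38 on the log2 scale (SE 0.11), PMI40, the mannose phosphate isomerase, by 1.96 (SE 0.21) and GFA1, the first enzyme of chitin precursor synthesis, by 0.93 (SE 0.14).

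All 4 transcription factors of glycolytic genes in the list were called, 2 higher and 2 lower, where 60.9% of all genes tested were called. GCR1, the activator that binds CTTCC, had 5415, 5483 and 5645 normalized reads in wild type and 1345, 1653 and 1427 in the triple mutant. It fell by 1.91 on the log2 scale (SE 0.09, adjusted p = 9.86e-07 by limma) with little spread in either group. GCR2, its partner, rose from 1879 ± 8.12 to 3390 ± 32.8 normalized reads (log2 fold change 0.85, SE 0.06) and RAP1 from 1938 ± 86.9 to 3652 ± 388 (log2 fold change 0.91, SE 0.09). TYE7, the other member that fell, stood at -1.76 (SE 0.37, adjusted p = 0.00284 by limma).

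Of 14 genes of glucose repression and Hxk2 signalling, 9 rose, 3 fell and 2 were not called, with a median of 0.77, where 30.1% of all genes tested were called higher and 30.9% lower with a median of -0.01. Leaving out single libraries gave 9 higher each time and 1 to 3 lower, with 1 lower without wild type replicate 3. MIG3, a Mig1-related repressor gene, fell from 1325 ± 110 to 331 ± 25.2 normalized reads (limma adjusted p = 1.19e-06). GLC7, the phosphatase that opposes the Snf1 kinase, rose by 1.20 (SE 0.12), and RGT1, the repressor of hexose transporter genes, by 1.24 (SE 0.13). MIG2 and TYE7, both named after their values were seen, were also low in replicate 2 of wild type and pil1Δ. MIG2, a repressor gene, had 11670, 3615 and 10969 normalized reads in replicates 1 to 3 of wild type and 11026, 3999 and 9767 in pil1Δ. TYE7 had 7561, 3508 and 9084 in wild type and 7721, 3758 and 7005 in pil1Δ. In pil1Δ, none of the genes in these 5 lists was called against wild type.

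**Figure D5:**
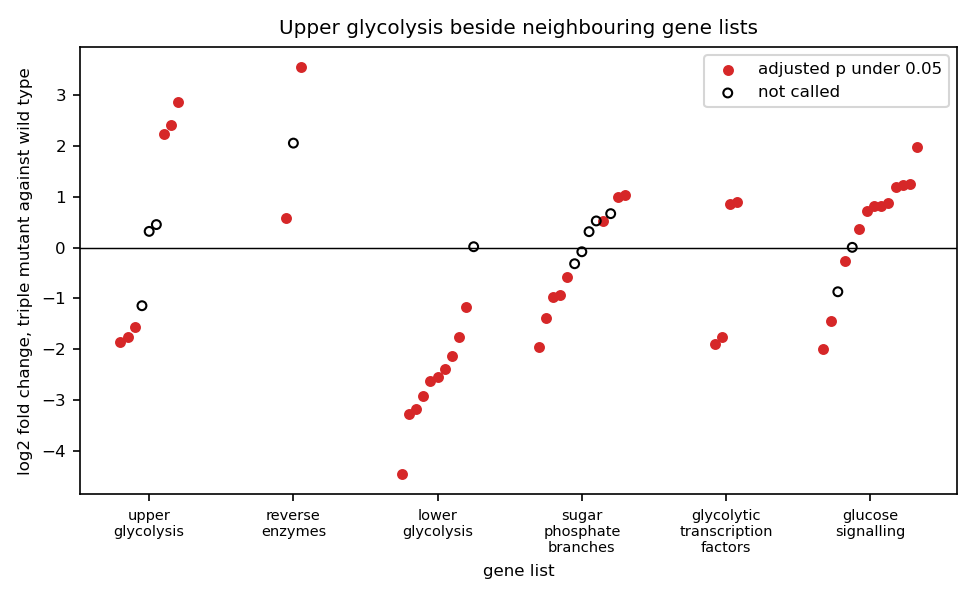
Log2 fold change of each gene in the triple mutant against wild type, by gene list, with filled red points for an adjusted p under 0.05 by limma and open points for genes not called. Upper glycolysis holds 3 genes above 2 and 3 between -1.87 and -1.56, and 10 of the 11 lower glycolysis genes lie below -1.

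For each of the 9 genes, the tested genes outside the 9 were ranked by how similar their profiles were. The measure was the root mean square difference of log2(value + 1), taken relative to the wild-type mean, over all 9 libraries. The 9 genes were not ranked against each other, so a gene named as nearest is nearest outside the 9 only. MCR1, a mitochondrial NADH-cytochrome b5 reductase gene, was nearest to GLK1 (0.08) and second nearest to EMI2 (0.26). GPX1, a glutathione peroxidase gene, was next for GLK1 (0.16), and GSY1, a glycogen synthase gene, was nearest to EMI2 (0.24). PGK1 (0.14) and TDH3 (0.20), the phosphoglycerate kinase and a glyceraldehyde-3-phosphate dehydrogenase gene of lower glycolysis, were nearest to PGI1. TDH3 is 95.8% identical to TDH2, so its reads are uncertain. MOB2 (0.14) and PHO13 (0.14) were nearest to PFK1, and SER2 (0.13) and YDL186W (0.16) to PFK2. For PFK26 they were PEP8 (0.06) and YNR068C (0.06), for HXK2 HRK1 (0.14) and RIB1 (0.21), and for PFK27 TDA6 (0.26) and NOG1 (0.28). Outside the 9 genes HXK1 had no close match, with DSF1 at 0.43 and YFL051C at 0.44. DSF1 is 98.9% identical to YNR073C and its reads are uncertain. The triple mutant sets most of these profiles, so the likeness is a description of the same libraries.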

How the data were processed

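Polyadenylated RNA was sequenced in 9 yeast libraries, 3 for each of 3 strains, per the labels. GSNAP, DESeq2, DESeq and build R64 appear in the submitters' processing notes with no version. The tool that counted reads, and its handling of strand, are details not given in the sources used here. The signal deposited by the authors is a read count over a size factor: all values of a column (100%) were multiples of 1 step within 1e-06, which returned whole reads. The second table deposited by the authors holds log2 values transformed by a method not given in the sources used here.

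Genes averaging at least 10 normalized reads (5886 of 6215) were tested with limma 3.58.1 in R 4.3.3, with moderated variances (robust, with a trend), on log2(value + 1). The fit held the group means of all 9 libraries. Two-sided p-values were corrected over all genes tested by the Benjamini-Hochberg method. This scale understates changes of low genes. The members, the gene lists and the tests were chosen with earlier results of these data known. The text names all members, the deleted genes, FBP1, FBP26 and ZWF1, and up to 3 further genes of each list with the smallest p. It also names the 2 most similar genes of each member, taken from outside the 9 members. Genes were compared with each other per kilobase of coding length. R64 reference coordinates and promoters were used, which hold 6212 of the identifiers and lack 3.

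Replicates differed by more than counting noise (a chi-square of 36.1 to 397 for each degree of freedom), and none was a second deposit. The replicate numbers of wild type and pil1Δ were taken as pairs because such libraries deviated together from their group means (correlations 0.639, 0.833 and 0.579), which is a check of the data and not a label. Those of the triple mutant were not taken so (0.0499 to 0.439). Alternatives were TMM and total-read scaling, the transformed table, 2 other filters (none, or a mean of 50), pseudocount 5, fits to the compared groups alone, the replicate block, edgeR 4.0.16 and DESeq2 1.42.0 on recovered reads, and libraries left out.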

Additional observations from a re-analysis of the deposited data

How the results depend on the processing

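Over 22 alternatives, HXK1, GLK1, EMI2, PGI1, PFK1 and PFK2 kept their direction and their call in the triple mutant against wild type and against pil1Δ, and none of the 9 genes was called in pil1Δ against wild type. Counts of genes called higher or lower in the triple mutant stayed between 3 and 4, the added calls being PFK26 and PFK27. In the fit with the replicate block, PFK26 was called at 0.32 (adjusted p = 0.0208 by limma) and PFK27 at -1.15 (adjusted p = 0.0418) against wild type, and at 0.30 (adjusted p = 0.0259) and -1.22 (adjusted p = 0.0323) against pil1Δ. The triple mutant numbers did not pass the pairing check. With only the groups compared, the replicate block kept 1 of these 4 calls, PFK27 at -1.22 against pil1Δ (adjusted p = 0.0351). PFK26 and PFK27 against wild type (adjusted p = 0.0545 and 0.0782) and PFK26 against pil1Δ (adjusted p = 0.0794) were not called by it. The replicate block changed no call of these genes in pil1Δ against wild type. DESeq2 called PFK26 at 0.34 and 0.33 against wild type and pil1Δ. It called 2 genes in all in pil1Δ against wild type, where limma called 1.

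Genes that were not called could change sign. HXK2 in the triple mutant against pil1Δ was -0.056 without pil1Δ replicate 2, alone or with wild type replicate 2. In pil1Δ against wild type, PFK27 was -0.038 with edgeR, -0.036 with DESeq2 and -0.093 without the second replicates of both strains, and PFK26 was -0.060 without wild type replicate 1, alone or with triple mutant replicate 1. Leaving out single libraries gave ranges in pil1Δ against wild type of -0.26 to 0.51 for HXK2, -0.17 to 0.017 for PGI1, -0.25 to 0.074 for PFK1, -0.25 to 0.066 for PFK2, -0.060 to 0.096 for PFK26 and -0.64 to 0.62 for PFK27. The range for HXK2 in the triple mutant against pil1Δ was -0.056 to 0.57. The cause was not tested. Ratios had no call to lose, and leaving out 1 of 3 libraries cannot move them by a whole SD. Without wild type replicate 2, the log2 difference between triple mutant and wild type went from 1.47 to 2.25 for PFK26 to PFK27 and from -1.73 to -2.52 for PFK27 to FBP26, and those between pil1Δ and wild type from -0.057 to 0.73 and from 0.065 to -0.72. PFK1 to FBP1 against pil1Δ went from -3.50 to -2.11 without triple mutant replicate 1, and to -4.16 and -4.22 without replicates 2 and 3. Omissions for genes of the other lists, and differences within replicate pairs, were added after the data were seen. Replicates differed by more than counting noise, so the number of libraries limits precision more than depth.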
